A study of Rattus norvegicus with 3 samples.

Results

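Microtubules, the stiff polymers of alpha- and beta-tubulin that fill axons and dendrites, are held together or taken apart by 2 families of proteins examined here: 6 structural microtubule-associated proteins (MAPs), encoded by Map1a, Map1b, Map2, Mapt, Map4 and Map6, and 4 stathmins, encoded by Stmn1 to Stmn4. The genes were taken by symbol, not by their level, and all 10 were found, each with 1 gene ID, among the 30957 Ensembl genes of each table. The tissue was motor cortex, taken from males of the outbred Sprague-Dawley stock that had received no treatment, 3 rats in 1 group named normal. The labels give a time of 8 weeks without saying from which event, and number the animals 32, 39 and 68. Each animal gave 1 mRNA library, so a difference between animals cannot be told apart from one between dissections or preparations, and no second condition was analysed here. Levels are FPKM, fragments per kilobase scaled to the depth of the library, which allow genes to be compared per unit of length.

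Structural MAPs bind along the polymer and stabilise, space or bundle it, and they divide the neuron between them: MAP2 lies in dendrites and cell bodies, tau (Mapt) mainly in axons. Stathmins do the opposite, binding free tubulin dimers and promoting disassembly of the polymer until phosphorylation releases the dimers. Several of these genes, among them Map1b, Stmn1 and Stmn2, are best known from the growing brain and from regrowing axons.

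Every member was well detected. All 10 stood at or above 1 FPKM in each animal, and the lowest value of all was 19.3 FPKM for Map6 in animal 68. Their sum was 1367, 1366 and 1235 FPKM in animals 32, 39 and 68, or 0.398, 0.392 and 0.343% of the FPKM of genes outside the mitochondrial genome. The animals thus differed little in this total, with animal 68 lowest. Among the 13378 genes whose mean reached 1 FPKM, each of the stathmins lay above 97.8% or more, Mapt above 95.8% and Map6, the lowest member, above 78.1%. No locus of a member overlapped that of another gene in the tables, so fragments from an antisense or nested gene of the annotation do not enter these values.

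The libraries resembled each other to different degrees, which touches every statement on differences between animals. Depth, inferred from short loci, was 16550241, 15460924 and 17670986 fragments in animals 32, 39 and 68. The least expressed member, Map6, then rested on 341 to 585 fragments per kilobase, a counting error of 4.13 to 5.41% for a gene of 1 kilobase. Slc17a7, the glutamate transporter gene of cortical excitatory neurons, measured 521, 537 and 495 FPKM, so this cortical marker was abundant in each library. Markers of other cells and regions were higher in animal 68: the summed level of 7 oligodendrocyte markers was 3237, 5006 and 8766 FPKM and that of 6 choroid plexus markers 9.90, 627 and 7471 FPKM. Neuron markers took the other direction, 7 of them summing to 3470, 3018 and 2479 FPKM. Of these, 3 were lower by over 1.5-fold in animal 68 than in animal 32. The 6 striatal neuron markers, in contrast, summed to 87.1, 82.7 and 217 FPKM. In bulk tissue, fewer cells of a type and less RNA per cell cannot be told apart.

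Stathmins headed the list. Members lie on the plus strand of Rnor_6.0 unless the minus strand is named. Stmn1 (ENSRNOG00000016810, chromosome 5, 152680407 to 152686806), the ubiquitous cytosolic stathmin that is abundant in dividing and growing cells, measured 255, 217 and 155 FPKM in animals 32, 39 and 68, a mean of 209 ± 50.6 (SD, n = 3). It was the highest member in animals 32 and 39 but only the fourth in animal 68, which stood clearly below the others. Stmn4 (ENSRNOG00000053334, chromosome 15, 43007908 to 43025852), a membrane-anchored neural form also called RB3, measured 201, 197 and 191 FPKM, a mean of 196 ± 5.23. The animals hardly differed in Stmn4, whose SD was 2.67% of the mean, the smallest relative spread of the 10 members.

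Stmn2 (ENSRNOG00000011705, chromosome 2, 95424251 to 95472115, minus strand), also called SCG10, is a palmitoylated stathmin of growth cones and a marker of axon growth. It measured 195, 177 and 170.3 FPKM, a mean of 181 ± 13.0. Stmn3 (ENSRNOG00000013657, chromosome 3, 176808017 to 176816162, minus strand), the related SCLIP, measured 199, 186 and 137 FPKM, a mean of 174 ± 33.0. Animal 68 was lowest for each of the 4 stathmins and animal 32 highest, but the gap was wide for Stmn1 and Stmn3 and small for Stmn2 and Stmn4.

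**Figure D1:**
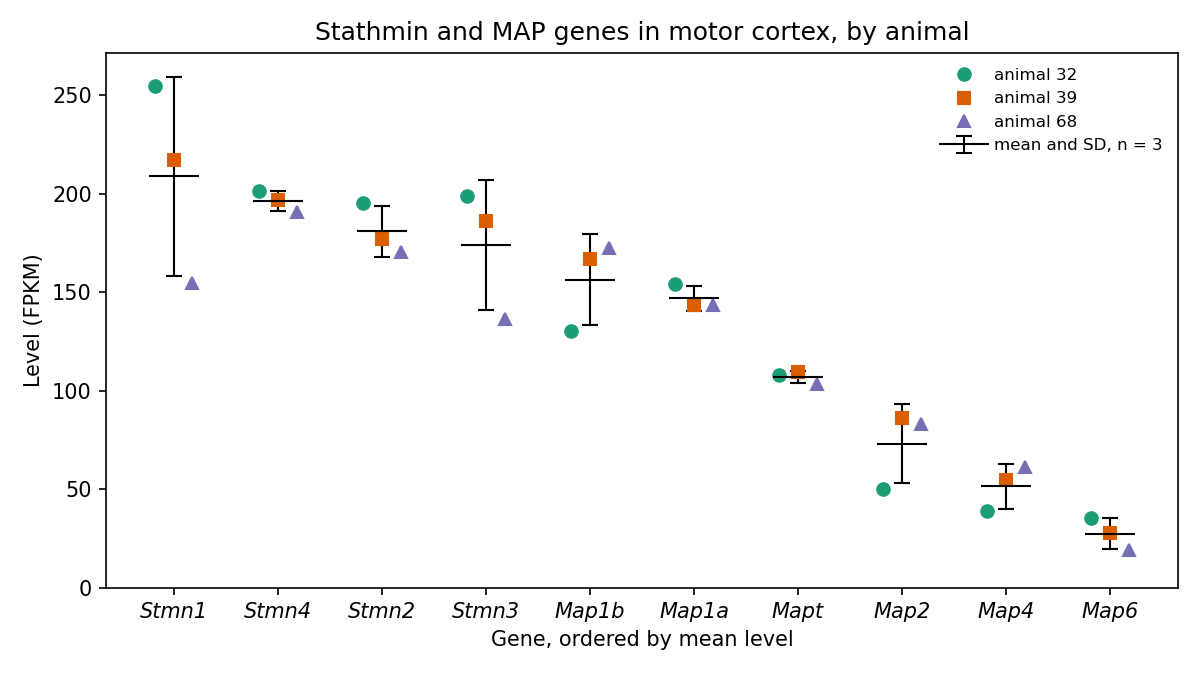
Level in FPKM (vertical axis, from 0) of the 10 genes in each of the 3 animals, ordered by mean, with bars for the mean and SD (n = 3). The 4 stathmins have means between 174 and 209 FPKM and the MAP genes range from 156 (Map1b) down to 27.4 (Map6), while Stmn4 and Mapt show almost no spread between animals.

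Upstream sequence was taken from RefSeq promoter entries of the GRCr8 build, which hold 5 of the 10 genes (Map1a, Map1b, Map2, Stmn1 and Stmn3). In Map1a, Map2 and Stmn1 the start of the entry lies 5788, 173652 and 871 bases inside the annotated gene, so those windows are not shown. The 250 bases before the start are shown for Stmn3 and Map1b, a stathmin and a MAP gene with opposite order across the animals. Capitals mark matches on either strand to 5 motifs that do not overlap here, the TATA box, the GC box, the CCAAT box, the E-box and a partial cyclic AMP response element, each spelled out beside its result. The windows are chr3:188802495-188802744 for Stmn3 and chr2:32644472-32644721 for Map1b, both on the minus strand, and they read 5′ to 3′ in the direction of the gene.
Stmn3: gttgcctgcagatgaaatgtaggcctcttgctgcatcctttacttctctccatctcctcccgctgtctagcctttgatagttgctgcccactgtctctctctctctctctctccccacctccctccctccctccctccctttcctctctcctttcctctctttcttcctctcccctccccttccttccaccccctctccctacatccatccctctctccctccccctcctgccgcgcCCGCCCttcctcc
Map1b: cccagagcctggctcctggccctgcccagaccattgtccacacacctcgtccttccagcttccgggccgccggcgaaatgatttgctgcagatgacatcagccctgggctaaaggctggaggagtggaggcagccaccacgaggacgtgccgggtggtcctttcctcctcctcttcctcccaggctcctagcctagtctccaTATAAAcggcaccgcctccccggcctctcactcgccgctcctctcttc

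The upstream region of Stmn3 held 4 CpG dinucleotides and 59.2% G and C, beside medians of 5 and 51.2% over all 33469 promoter entries taken at the same 250 bases. Its single match was a GC box, searched as GGGCGG, on the reverse strand 13 bases before the start, a motif found in 30.5% of entries. Map1b held 13 CpG dinucleotides and 63.6% G and C, more CpG than 70.6% of entries. Its single match was a TATA box, searched as TATAAA, 48 bases before the start, a motif found in 12.9% of entries. Neither window matched the CCAAT box, named for its letters and found in 34.0% of entries. The E-box, searched as CACGTG and found in 5.59% of entries, was in neither window. The partial cyclic AMP response element, searched as TGACGT and found in 6.95% of entries, was also in neither. Such matches describe the letters of these windows only.

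The large MAP1 proteins came next. Map1b (ENSRNOG00000017428, chromosome 2, 29675391 to 29768750, minus strand), the early neuronal MAP of growing axons, measured 130.2, 167 and 172 FPKM in animals 32, 39 and 68, a mean of 156 ± 22.9. Map1a (ENSRNOG00000014230, chromosome 3, 113251778 to 113272186), its relative of mature neurons, measured 154, 143 and 143 FPKM, a mean of 147 ± 6.33. The means of these related genes were thus close, although within each animal their levels differed. The log2 ratio of Map1a to Map1b within an animal was 0.25 in animal 32, -0.22 in animal 39 and -0.27 in animal 68, a mean of -0.08 (SD 0.28, n = 3). The sign changed between animals, and no difference beyond the spread was seen. Without animal 32, Map1b exceeded Map1a by 0.24 on the log2 scale (SD 0.03, 2 animals).

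Ratios of this kind were formed within each animal as log2 of FPKM plus 0.1, so that a library's overall scale cancels. A pair was said to differ beyond the spread when the ratio had the same sign in 3 of 3 animals and its mean was more than 2 SDs from 0. The smallest two-sided p that an exact sign-flip permutation test allows with 3 animals is 0.25, so no pair can reach significance in it. Errors in gene length or mapping are shared by the animals and are not part of these SDs.

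Of the 6 pairs of stathmins, 1 differed by that measure. Stmn1 exceeded Stmn3 by 0.36, 0.22 and 0.18 in animals 32, 39 and 68 (mean 0.25, SD 0.09, 1.19-fold), a small difference that stayed beyond the spread without each animal in turn. It was not among the 9 pairs chosen for comparison. Stmn1 over Stmn2 was 0.38, 0.29 and -0.14 in animals 32, 39 and 68, with a mean of 0.18 (SD 0.28). Stmn1 over Stmn4 was 0.34, 0.14 and -0.30, Stmn3 over Stmn2 0.02, 0.07 and -0.32, and in both pairs animal 68 had the opposite sign to the other animals. Stmn4 over Stmn3 was 0.02, 0.08 and 0.48, always above 0, but its mean of 0.19 was smaller than its SD of 0.25. Stmn4 over Stmn2, at 0.04, 0.15 and 0.16, was likewise above 0 in each animal but not beyond the spread (mean 0.12, SD 0.07). The means of the 4 genes ran from 174 FPKM for Stmn3 to 209 FPKM for Stmn1.

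The axonal, dendritic and general MAPs were spread more widely. Mapt (ENSRNOG00000005133, chromosome 10, 92289002 to 92386509), which encodes tau, measured 108, 109.5 and 104 FPKM, a mean of 107 ± 3.13. Map2 (ENSRNOG00000011841, chromosome 9, 73378057 to 73459371), the dendritic MAP, measured 49.9, 86.2 and 83.2 FPKM, a mean of 73.1 ± 20.1. Animal 32 lay far below the others in Map2, while in Mapt the animals were almost level. Map2 over Mapt was accordingly -1.11, -0.34 and -0.32 on the log2 scale: tau was higher in 3 of 3 animals, but the mean of -0.59 did not exceed 2 SDs (SD 0.45). Without animal 32 the ratio was -0.33 (SD 0.02, 2 animals), which did.

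Map4 (ENSRNOG00000020748, chromosome 8, 118013612 to 118159933), the MAP found in many cell types, measured 38.9, 54.6 and 61.2 FPKM, a mean of 51.5 ± 11.5. Map2 exceeded Map4 by 0.36, 0.66 and 0.44 on the log2 scale, and this difference was beyond the spread (mean 0.49, SD 0.15, 1.40-fold). Mapt exceeded Map4 by 1.47, 1.004 and 0.76 (mean 1.08, SD 0.36, 2.11-fold), also beyond the spread. Map2 and Mapt thus stood above the general MAP in each animal, with the smallest gap to tau in animal 68.

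Map6 (ENSRNOG00000027204, chromosome 1, 164225934 to 164292093), which encodes STOP, the protein that makes neuronal microtubules stable to cold, measured 35.4, 27.6 and 19.3 FPKM, a mean of 27.4 ± 8.02. It was the lowest member in every animal. Map6 over Mapt was -1.61, -1.99 and -2.42 on the log2 scale (mean -2.00, SD 0.40), so Mapt was 4.01-fold higher. This was the largest of the 9 chosen ratios. In all, 3 of these 9 pairs differed beyond the spread: Map2 over Map4, Mapt over Map4 and Map6 over Mapt. Without animal 32 the count was 5.

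**Figure D2:**
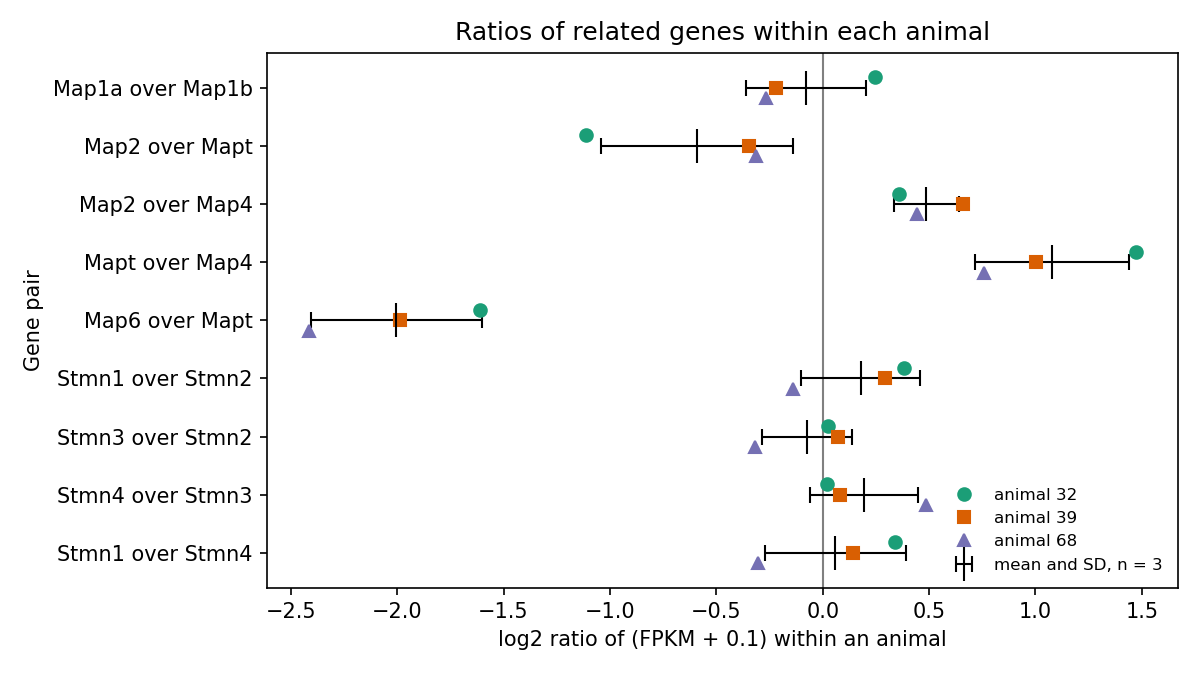
Log2 ratio of (FPKM + 0.1) between related genes within each animal (horizontal axis) for 9 pairs (vertical axis), with the mean and SD (n = 3). Points of the 4 stathmin pairs lie between -0.32 and 0.48, whereas Mapt over Map4 lies between 0.76 and 1.47 and Map6 over Mapt between -2.42 and -1.61.

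Placed in order of mean level, the members ran Stmn1, Stmn4, Stmn2, Stmn3, Map1b, Map1a, Mapt, Map2, Map4 and Map6. Of the 9 steps between neighbours, only Map1a over Mapt (0.51, 0.39 and 0.47, mean 0.46, SD 0.06) and Map2 over Map4 were beyond the spread. Without animal 32 the count of such steps was 6. From Stmn1 down to Map1a no neighbour differed beyond it. The lower end kept its order better than the upper: Mapt, Map2, Map4 and Map6 held places 7, 8, 9 and 10 in each animal, whereas Map1b held place 6 in animal 32, 5 in animal 39 and 2 in animal 68. Of all 45 pairs of members, 29 differed beyond the spread. The share among pairs of other genes was not computed, so this count and others of its kind describe the levels of these genes only.

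By median mRNA level, the 4 stathmins stood above the 6 MAPs. The median of the 4 stathmins was 200.02, 192 and 162 FPKM in animals 32, 39 and 68, and that of the 6 MAPs 79.0, 97.9 and 93.3 FPKM. The log2 ratio of the medians was 1.34, 0.97 and 0.80, a mean of 1.04 (SD 0.28, n = 3), positive in each animal. Of the 24 pairs of a stathmin with a MAP, the stathmin was higher beyond the spread in 17, and the other 7 involved Map1a, Map1b or, for Stmn3, Map2. With the mean per gene in place of the median the ratio was 1.01 (SD 0.28), an alternative chosen after seeing the data. With sums, which set 4 stathmins against 6 MAPs, it was 0.43 (SD 0.28) and no longer more than 2 SDs from 0. Set against alpha-tubulin mRNA, the 4 stathmins summed to 0.539, 0.528 and 0.443 of its summed FPKM in animals 32, 39 and 68. The 6 MAPs summed to 0.327, 0.399 and 0.396 of it. These ratios depend on the tubulin chosen: alpha-tubulin summed to 1578, 1475 and 1472 FPKM, and beta-tubulin, which went the other way, to 1325, 1389 and 1493. Ratios of mRNA do not give those of the proteins.

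Members differed unequally between animals. Between animals 32 and 68, 4 of 10 lay more than 1.5-fold apart. Map2 (0.74 on the log2 scale, animal 68 minus animal 32) and Map4 (0.65) were higher in animal 68. So were 19.4% of all 13378 genes by over 1.5-fold. Stmn1 (-0.72) and Map6 (-0.87) were lower, as were 7.94% of all genes by over 1.5-fold. Stmn3 lay just inside the bound (-0.54) and Map1b did not reach the bound (0.41). The other 4, Map1a (-0.11), Mapt (-0.06), Stmn2 (-0.20) and Stmn4 (-0.08), differed by little. The split depends on scaling: with median-of-ratios scaling or equal nuclear totals, 1 member was higher and 3 were lower, Stmn3 passing the bound and Map4 dropping below it. With animal 32 left out no member was past 1.5-fold between the others, and with animal 68 left out only Map2 was. With 1 library an animal these differences carry no test.

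Other pairs of animals were closer. Between animals 32 and 39 only Map2 passed the bound, higher in animal 39 by 0.79, beside 8.10% of all genes, and no member was lower by that much, beside 2.23%. Between animals 39 and 68 no member passed in either direction, beside 12% of genes higher and 6.53% lower in animal 68. The nearest were Map6 (-0.51), Stmn1 (-0.49) and Stmn3 (-0.45), all lower in animal 68. Low values of Map1b, Map2 and Map4 were thus a feature of animal 32, and low values of Stmn1, Stmn3 and Map6 were most marked in animal 68.

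The SD of the log2 value over the 3 animals rests on the same values, so its similar division is no separate support. It was 0.44 for Map2, 0.44 for Map6, 0.37 for Stmn1 and 0.34 for Map4, larger than in 80.5, 80.2, 74.7 and 71.9% of all genes past the filter. It was 0.04 for Stmn4, 0.04 for Mapt and 0.06 for Map1a, larger than in only 3.97, 4.83 and 9.90%. The median SD of the members was 0.26, against 0.20 for all genes, and 6 of 10 members lay above that median. The members' median SD was 0.049 without animal 32 and 0.131 without animal 68. The fall without animal 32 was not shared by all members. Map1b, Map2 and Map4 then had larger SDs than only 11.4, 12.3 and 36.2% of genes. Stmn1, Stmn3 and Map6 still had larger SDs than 75.4, 72.6 and 76.7%.

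Cell type markers also differed between the same animals. Animal 68 minus animal 32, the median log2 difference was -0.53 for the 7 neuron markers (3 lower and none higher by over 1.5-fold), 1.42 for the 7 oligodendrocyte markers (7 higher), 1.17 for the 4 precursor markers (4 higher), 1.10 for the 6 astrocyte markers (5 higher), 1.16 for the 5 microglia markers (4 higher), 1.91 for the 6 striatal neuron markers (6 higher) and -0.18 for the 3 endothelial markers found. The 6 choroid plexus markers were all higher, by a median of 7.84. Over the same pair of animals the stathmins had a median of -0.37, the MAPs 0.17 and all genes 0.07. All 4 stathmins and, of the MAPs, Map6, Map1a and Mapt had differences below 0. Those of Stmn4, Map1a and Mapt were small (-0.08, -0.11 and -0.06). Medians of the neuron and endothelial markers were also below 0. Map1b, Map2 and Map4 had differences above 0, as had the medians of the glial and the striatal neuron markers. Animal 68 minus animal 39, Map1b, Map2 and Map4 differed by only 0.05, -0.05 and 0.16. Medians of the oligodendrocyte, precursor, astrocyte and microglia markers were then 0.78, 0.58, 1.04 and 0.52. Those of the stathmins and the neuron markers were -0.25 and -0.19. The part of cell makeup in these differences was not tested. Markers of immature neurons were low, with a summed level of 10.1 FPKM in animal 32 and 14.9 FPKM in animal 68 over 5 genes. Among them Igfbpl1 measured 0.0455 and 3.88 FPKM in these animals. Those of dividing cells were also low (1.96, 2.45 and 3.69 FPKM over 4 genes). Stmn1 stood at 155 FPKM or more in each animal, and which cells its mRNA came from was not tested.

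**Figure D3:**
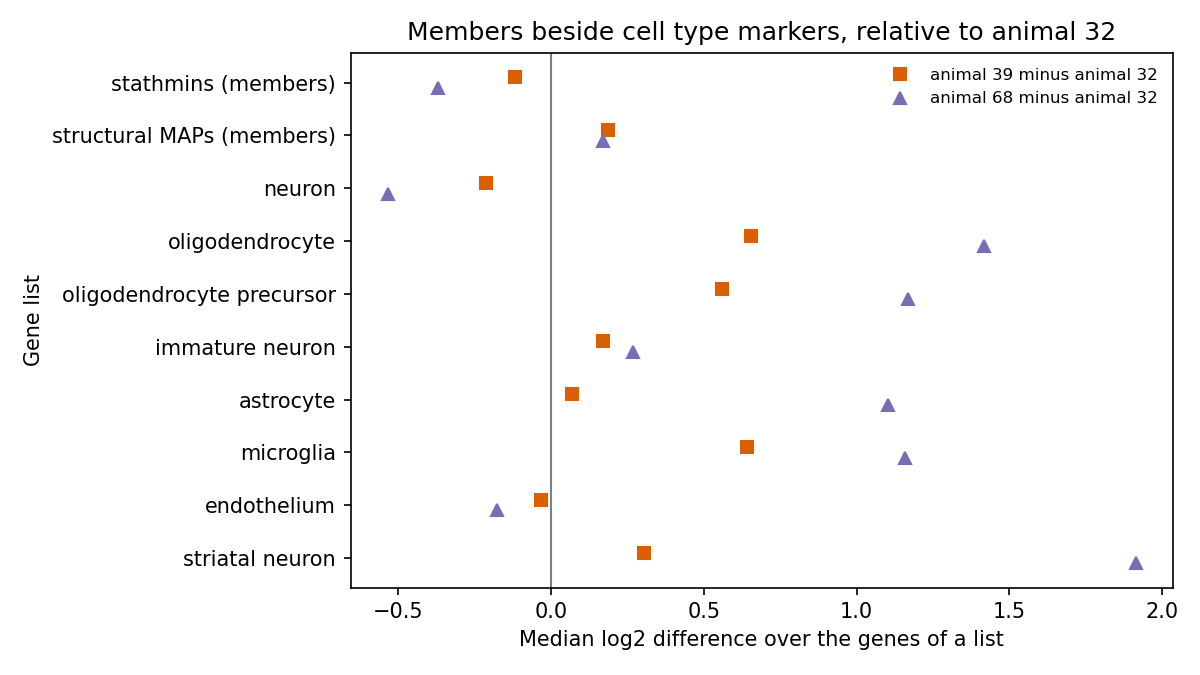
Median log2 difference over the genes of each list (horizontal axis), for animal 39 minus animal 32 and animal 68 minus animal 32; lists are the members and cell type markers, with choroid plexus left off for its size and dividing cells left off because only 1 of their genes passed the filter. Stathmins (-0.12 and -0.37) lie below 0, as do the neuron and the endothelial markers, and the median of the MAPs (0.19 and 0.17) lies above it.

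Length of the locus was also compared, since members span 6.40 kb (Stmn1) to 146 kb (Map4). Over all genes, the median difference of animal 68 minus animal 32 was 0.04 for loci of 10 kb or less and 0.14 for those over 50 kb. Stmn1 and Stmn3, on loci under 10 kb, were lower in animal 68, and Map1b, Map2 and Map4, on loci over 50 kb, were higher, but Map6, on 66.2 kb, was lower and Mapt, on 97.5 kb, was level. Transcript lengths were not used here, and the part of length in these differences was not tested.

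Other microtubule genes were described from 7 lists with 92 symbols, of which 89 were found and 78 reached a mean of 1 FPKM. Between animals 32 and 68, 10 of these 78 were higher and 12 lower in animal 68 by over 1.5-fold, or 12.8 and 15.4%, beside 19.4 and 7.94% of all genes. Whether these shares differ was not tested. Among other structural MAPs, the tubulin polymerisation-promoting protein Tppp, known from oligodendrocytes, measured 75.5 ± 2.55 FPKM, Map7d1 75.4 ± 7.76, the Map6 relative Map6d1 44.5 ± 7.89 and Tppp3 33.1 ± 10.8. Map7, Mtus1 and Tppp3 were higher and Mtcl1 lower in animal 68, so 4 of the 11 past the filter differed. Map6d1 (36.1, 45.5 and 51.8 FPKM) exceeded Map6 itself and had the opposite order over the animals.

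The doublecortin family binds microtubules of migrating and growing neurons. Its member Dclk1 measured 93.5 ± 24.8 FPKM, Dclk2 12.8 ± 2.54, Dclk3 11.1 ± 6.25 and Dcx, a marker of immature neurons, 6.27 ± 0.309. Dclk1 (117, 95.6 and 67.8 FPKM in animals 32, 39 and 68) had the same order as Stmn1, and Dclk1 and Dclk3 were the 2 of 4 that were lower in animal 68. Of 13 proteins of the microtubule ends, 0 were higher and 0 lower by over 1.5-fold between animals 32 and 68, beside the same 19.4 and 7.94% of all genes. They were led by Clip3 (135 ± 14.7), the end-binding proteins Mapre2 (119 ± 7.64) and Mapre3 (112 ± 13.6), and Clasp2 (72.5 ± 1.32).

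Severing and depolymerising proteins had the lowest median of the 7 lists (0.874 ± 0.562 FPKM over 9 genes). Kif2a measured 17.8 ± 2.09 FPKM, Spast (spastin) 8.22 ± 0.554 and Katna1 3.57 ± 0.173. None of the 4 past the filter differed by over 1.5-fold, but 4 genes are too few to set against the shares of all genes. Katnal1 was listed at 0 in every library, as were Hdac6 and Agbl4 among tubulin-modifying enzymes. A value of 0 in such a table can be a failed estimate. Of the 12 modifying enzymes past the filter, 3 were higher and 4 lower in animal 68 than in animal 32, beside 19.4 and 7.94% of all genes. They included the deacetylase Sirt2 (83.4, 115 and 142 FPKM) and the tubulin tyrosine ligase Ttl (46.5, 30.5 and 20.3 FPKM). Ttll7 (69.7 ± 4.17) and Agtpbp1 (68.0 ± 7.39) differed by less.

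Enzymes that phosphorylate or dephosphorylate MAPs and stathmins had a median of 35.7 ± 2.17 FPKM over 21 genes, with the 4 highest well above it. Camk2a, a kinase of the excitatory synapse, measured 685 ± 79.3 FPKM, the calcineurin subunit Ppp3ca 326 ± 19.4, the phosphatase subunit Ppp2ca 156 ± 8.14 and the Jun kinase Mapk10 108 ± 20.5. Of the 21 past the filter, 1 was higher in animal 68 (Ttbk2) and 4 were lower (Mark1, Mapk9 and the Cdk5 activators Cdk5r1 and Cdk5r2). Cdk5r2 measured 128, 115 and 61.5 FPKM. Tubulins themselves were led by Tubb4a (663 ± 119), Tuba1b (583 ± 37.9), Tuba1a (506 ± 45.7) and Tuba4a (399 ± 69.9). Of 13 past the filter, 3 were higher (Tuba8, Tubb2b and Tubb6) and 1 lower (Tubg2) in animal 68. For both lists the shares of all genes were 19.4% higher and 7.94% lower, and a departure from them was not tested.

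**Figure D4:**
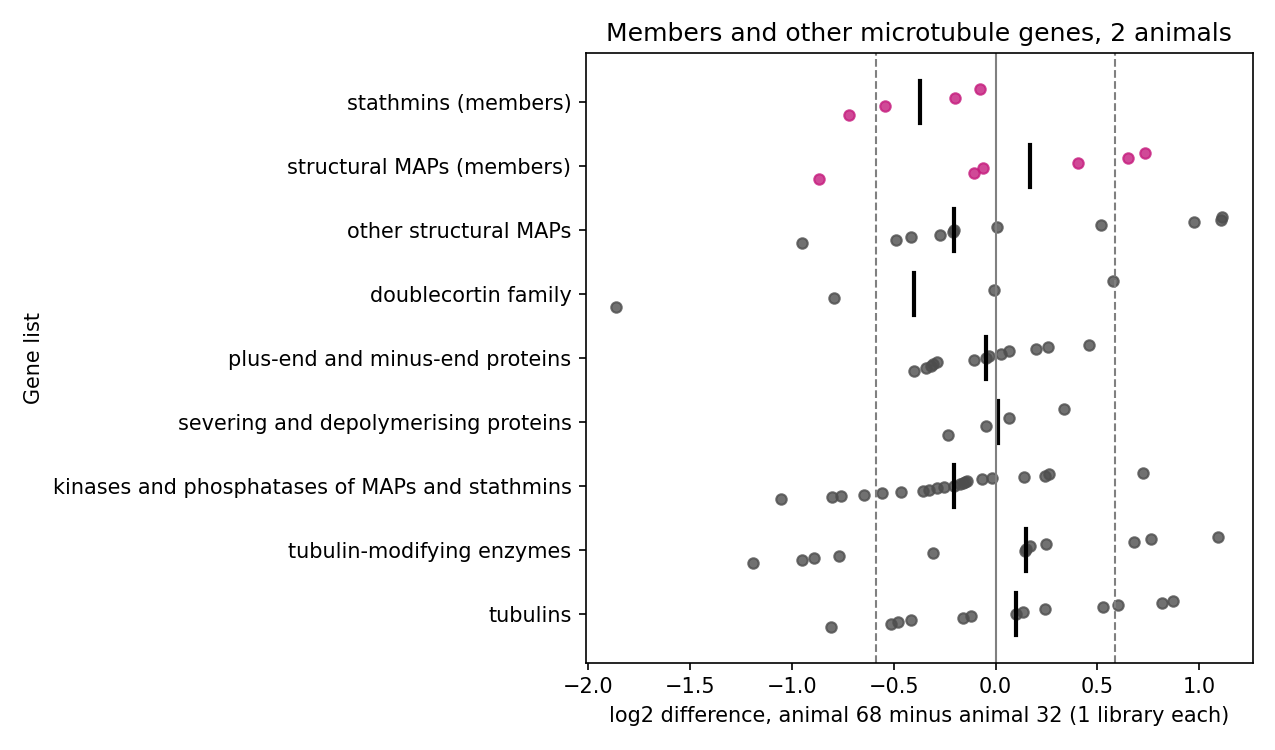
Log2 difference, animal 68 minus animal 32 (horizontal axis, 1 library each), of the 10 members (pink) and of other microtubule genes whose mean reached 1 FPKM (grey), by list; black bars are medians and dashed lines mark 1.5-fold. Stathmins all lie at or below -0.08, MAPs range from -0.87 (Map6) to 0.74 (Map2), and none of the 13 genes of microtubule ends passes a dashed line.

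Genes with a profile like that of a member were looked for among 6866 others with a mean of at least 10 FPKM, by the root mean square difference of log2 values centred over the 3 animals. With only 3 animals many genes match: 949 lay within 0.05 of Stmn4, 896 of Mapt and 796 of Map1a, the members with the least spread. Fewer matched where the animals differed, with 92 for Stmn1, 44 for Map4, 37 for Map6 and 7 for Map2. The nearest gene to Stmn1 was the mitochondrial creatine kinase gene Ckmt1b (137, 118 and 82.9 FPKM in animals 32, 39 and 68, difference 0.01), that to Map6 was Nr2f1 (42.7, 33.5 and 23.6 FPKM, 0.01) and that to Map2 was Cdo1 (34.3, 58.0 and 55.2 FPKM, 0.02). Nearest to Stmn2, Stmn3, Stmn4, Map1a, Map1b and Mapt were Wipi2, Dusp8, Dctn2, Copg1, Resp18 and Ube2e2, and to Map4 a gene listed as Rn60_2_0457.1. These matches describe 3 libraries.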

How the data were processed

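mRNA from motor cortex of 3 normal rats was sequenced, 1 library an animal. The deposited tables hold FPKM, for which the authors counted fragments of each gene, normalized them and computed FPKM in Perl, per the labels. HISAT2 2.0.4, StringTie 1.3.0 and Rnor_6.0 are named, with no role given, per the submitters' processing notes. The sources used here give no strandedness, read length or annotation release.

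FPKM are not counts, so no count model was used. Values were analysed as log2(FPKM + 0.1) in Python 3.11.15 with pandas 2.3.3 and numpy 2.4.6, which understates differences of low genes. The background is the 13378 genes whose mean reached 1 FPKM. Depth was inferred from genes with loci of up to 400 bases, where FPKM times locus length is a multiple of 1 fragment. Of such genes above 1 fragment, 77.5, 80.5 and 72.6% in animals 32, 39 and 68 came within 0.02 of a whole number. In no pair of libraries did a gene have equal values above 0. PCR copies are not independent, so depth covers counting error only. The computation of differences and SDs was tested on simulated data with counting error and set changes in 1 animal, but no other variation between animals. The rule for pairs was not part of that test.

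Members, lists, pairs and alternatives were chosen with earlier results of these data known. Named genes are all members, up to 4 list genes with the highest mean, those listed at 0, and the gene most like each member. List genes past 1.5-fold outside this rule (such as Map7, Mtcl1 and Cdk5r2) were chosen after their values were seen, as were the ratios to alpha-tubulin, the comparison by locus length and the promoter motifs. The symbols Fignl2, Svbp and Pecam1, among others, were not matched. Some items that this rule would name are not reported here. Where a symbol had several gene IDs, the ID with the highest mean was used. Since there is 1 group, no groups were compared and no samples were paired. Alternatives changed the scaling, pseudocount, filter, fold and list summary and left out each animal.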

Additional observations from a re-analysis of the deposited data

How the results depend on the processing

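No paired analysis was possible because all 3 animals belong to 1 group. Of 429 values recomputed under an alternative, 392 moved by less than their limit, 37 moved by more and 0 changed the sign of a difference beyond the spread. Part of the 392 could not move or could hardly move, so their number is no measure of stability. Each member has 1 gene ID, so summing gene IDs changed nothing, and some pairs count both as neighbours and as chosen pairs. None of the 45 pairs of members changed its call under the 3 other scalings or the 2 other pseudocounts, a check over all pairs that was added after seeing the data. Median-of-ratios scaling and equal nuclear totals multiply a library by 1 factor, which cancels in a ratio within an animal. The pseudocounts are small beside the members' levels, of which the lowest was 19.3 FPKM. Among these settings only quantile normalization could thus readily have changed a call. Leaving out 1 animal at a time, 25 to 36 of the 45 pairs, and 14 to 20 of the 24 pairs of a stathmin above a MAP, were beyond the spread. In the same way the neighbours in the order of levels that differed beyond the spread numbered 2 to 6, the chosen pairs 3 to 5, the members past 1.5-fold between any animals 0 to 4, and the median SD of the members ranged from 0.049 to 0.335 on the log2 scale. The highest neighbour and chosen pair counts, the lowest count of members past 1.5-fold and the lowest median SD were those without animal 32, and without animal 68 only 1 member was past 1.5-fold. An SD over 2 animals is uncertain, so pairs gained in this way need not differ. With a bound of 2-fold, 0 members differed between animals. With sums in place of medians, the log2 ratio of stathmins to MAPs was 0.43, as 4 genes are then set against 6. Without a filter, 23.9% of 18929 genes were higher and 11.3% lower in animal 68 than in animal 32, and 13.7 and 7.02% of 9566 genes whose mean reached 5 FPKM. Gene-level values do not separate isoforms of Mapt, Map2 or Map4.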
